A study of Homo sapiens with 12 samples.

Results

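The NKG2 genes lie side by side in the natural killer gene complex of chromosome 12 and encode lectin-like receptors of natural killer cells. Probe sets annotated with exactly 1 of the symbols KLRC1, KLRC2, KLRC3, KLRC4-KLRK1 and KLRD1 were taken, which gave 5 probe sets, 1 for each of these 5 genes, of 18417 genes that had a probe set with 1 symbol. KLRC2, KLRC3 and KLRC4-KLRK1 were chosen by their rise with estradiol in cells with non-targeting siRNA, so the values in that comparison are a description and carry no test here. KLRC1 and KLRD1 are the neighbours that complete the locus. A pair of further probe sets, annotated with KLRC4-KLRK1 together with KLRK1 (7961151) or with KLRC4 (7961166), are outside this choice and are given beside it by number, because their signal cannot be assigned to 1 gene.

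The study profiled U2OS-ERα cells, a human osteosarcoma line that carries estrogen receptor α, with 12 whole-transcript expression arrays from Affymetrix. All cells were transfected with 50 nM siRNA, kept in medium with charcoal-stripped serum and treated for 3 h, and each of 4 groups had 3 arrays, which the labels call biological replicates. The groups were non-targeting siRNA with ethanol vehicle (NT_V), non-targeting siRNA with 17-B-estradiol (NT_E), siRNA against NCOA1, the gene of the coactivator SRC-1, with ethanol (siSRC-1_V), and the same siRNA with 17-B-estradiol (siSRC-1_E). The labels do not say whether the line is 1 clone or whether the replicates were separate cultures, so p-values measure only the spread among these arrays.

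CD94, the product of KLRD1, pairs with a product of KLRC1 (NKG2A), KLRC2 (NKG2C) or KLRC3 (NKG2E). The pairs with NKG2A and NKG2C stand at the cell surface and read HLA-E on other cells. NKG2A carries inhibitory motifs in its tail, whereas NKG2C signals through the adaptor encoded by TYROBP. KLRK1 encodes NKG2D, which forms pairs with itself, signals through the adaptor encoded by HCST and binds stress ligands such as MICA and ULBP proteins. KLRC4-KLRK1 is a readthrough gene that joins KLRC4 to KLRK1. These receptors are known from natural killer cells and some T cells, not as products of bone cells.

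Since several of the genes moved together, their start regions are shown. Among the members, the RefSeq promoter table (GRCh38.p14) held KLRC3 and 3 starts of KLRC1, besides KLRC4 from the readthrough gene. KLRC2, KLRD1, KLRC4-KLRK1 and KLRK1 had no entry. Each window runs from 250 bases before to 50 bases after the start and is printed 5′ to 3′ on the minus strand; the KLRC1 window shown is the one farthest upstream. Capitals mark GGTCA or its reverse complement TGACC, the letters of 1 arm of the palindromic estrogen response element.

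KLRC4, chr12:10409708-10410007: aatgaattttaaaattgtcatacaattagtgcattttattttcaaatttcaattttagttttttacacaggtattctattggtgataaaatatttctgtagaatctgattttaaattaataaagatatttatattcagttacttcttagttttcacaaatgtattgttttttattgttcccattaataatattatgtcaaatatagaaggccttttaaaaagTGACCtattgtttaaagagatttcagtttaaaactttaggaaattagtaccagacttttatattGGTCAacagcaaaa

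KLRC3, chr12:10420546-10420845: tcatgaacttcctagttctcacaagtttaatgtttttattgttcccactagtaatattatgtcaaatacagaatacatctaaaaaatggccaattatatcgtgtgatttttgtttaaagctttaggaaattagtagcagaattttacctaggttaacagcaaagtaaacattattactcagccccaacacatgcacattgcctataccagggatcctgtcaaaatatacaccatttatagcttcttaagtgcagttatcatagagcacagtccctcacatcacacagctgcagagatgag

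KLRC1, chr12:10454636-10454935: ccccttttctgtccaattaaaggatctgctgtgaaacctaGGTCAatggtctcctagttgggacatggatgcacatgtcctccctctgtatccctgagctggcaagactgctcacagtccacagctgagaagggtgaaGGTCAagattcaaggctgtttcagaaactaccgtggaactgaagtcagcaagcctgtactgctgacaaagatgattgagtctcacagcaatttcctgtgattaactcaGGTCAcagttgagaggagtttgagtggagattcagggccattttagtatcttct

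The KLRC4 window held the 5 letters at 2 places, 1 in each orientation, the KLRC1 window at 3 places and the KLRC3 window at none. Of the other KLRC1 starts, the one at chr12:10454454-10454753 held 2 and the one at chr12:10453328-10453627 held none. Of all 35116 promoter windows in the table, 37.4% held at least 1, 9.28% at least 2 and 1.91% at least 3. The full palindrome GGTCANNNTGACC was in none of the 5 windows of this locus and in 0.057% of all windows. These are counts of letters in a short window, not of binding sites. Parts of the KLRC4 and KLRC3 windows, of 300 bases each, resemble each other. In the best local alignment, 127 of 159 aligned positions (79.9%) were identical. The longest shared run was 17 bases, taatattatgtcaaata, and began at base 187 of the KLRC4 window and base 52 of the KLRC3 window. The KLRC1 window shown shared no run over 8 bases with either. No probe sequences were used here, so the share of each signal that comes from near-identical neighbours was not tested.

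Estradiol raised KLRC2, KLRC3 and KLRC4-KLRK1 in cells that had received SRC-1 siRNA, by 2.45, 2.89 and 2.98 log2. The rise took these genes from below the lower quartile of the array to above it, in every array. KLRC1, the inhibitory receptor gene next to them, changed by 0.23 log2 and stayed below the quartile. KLRD1, whose product pairs with the products of KLRC1, KLRC2 and KLRC3, read 3.45 to 3.85 log2 in all 12 arrays. SRC-1 siRNA, averaged over both treatments, gave differences between -0.18 and 0.12 log2 for the 5, and none passed the test.

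The lower quartile is the value that 25% of the probe sets of an array stay under, controls excluded; it was 5.17 to 5.24 log2 over the 12 arrays, with array medians of 6.85 to 6.92. No background measurement came with the values. A level under the quartile is not shown to exceed background, and a difference that starts there is not exact. In bulk RNA, fewer cells with a transcript and less transcript per cell cannot be told apart.

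**Figure D1:**
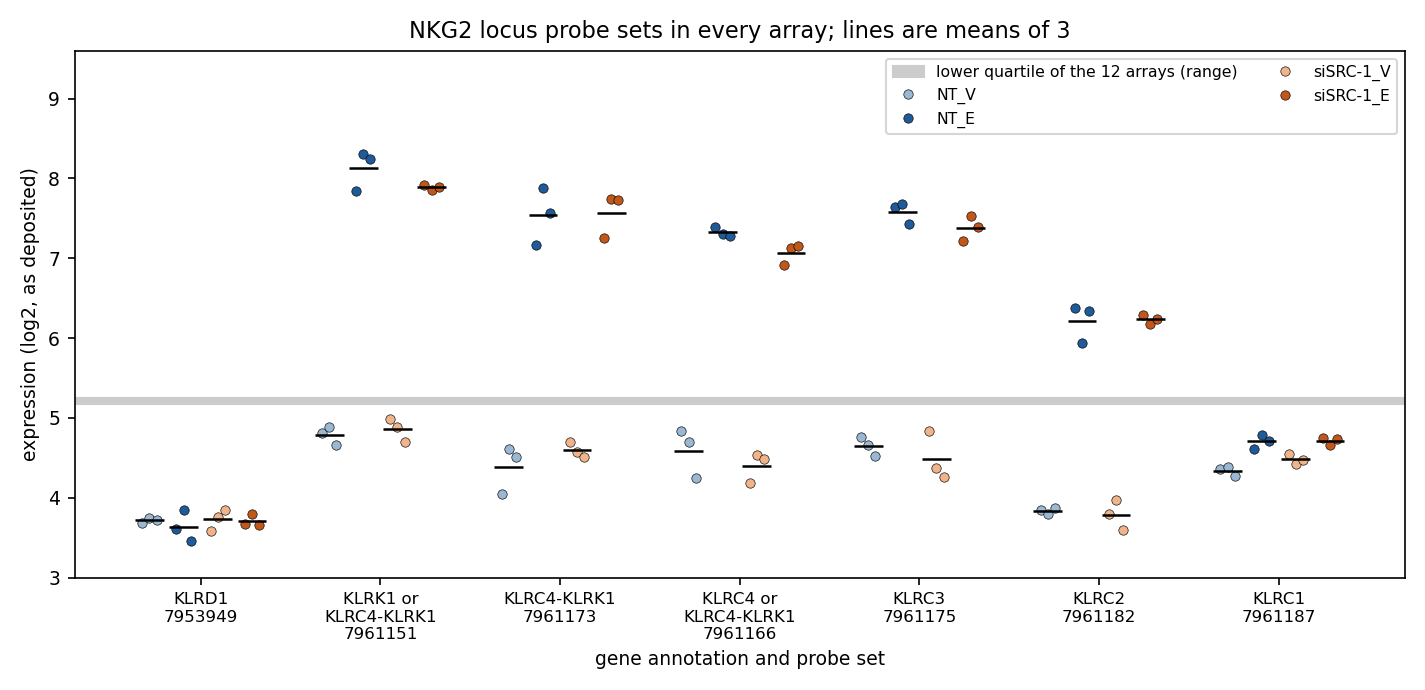
The y axis gives deposited log2 expression and the x axis the 7 probe sets of the locus with their annotation; each point is 1 array, coloured by group, and each line is the mean of 3. The grey band is the range of the lower quartile, 5.17 to 5.24. All estradiol arrays of KLRC2, KLRC3 and KLRC4-KLRK1 lie above the band and all vehicle arrays below it, while KLRC1 and KLRD1 stay below it throughout.

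KLRC3 (probe set 7961175, Entrez gene 3823) read 4.76, 4.66 and 4.52 log2 in NT_V replicates 1 to 3, and 7.64, 7.68 and 7.43 in NT_E. With SRC-1 siRNA it read 4.83, 4.37 and 4.26 under vehicle and 7.22, 7.53 and 7.40 under estradiol. The estradiol arrays of either siRNA were all high and did not overlap with any vehicle array. Means were 4.65 ± 0.12 (SD, n = 3) and 7.58 ± 0.13 with non-targeting siRNA, and 4.49 ± 0.30 and 7.38 ± 0.15 with SRC-1 siRNA. In the arrays with SRC-1 siRNA the difference was 2.89 ± 0.14 log2 (SE), 7.44-fold, with a limma adjusted p of 4.27e-07, the largest but 2 among 29094 probe sets. The 2 above it were 7961151 and KLRC4-KLRK1, of the same locus. With non-targeting siRNA the difference was 2.94 ± 0.14.

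KLRC4-KLRK1 (probe set 7961173, Entrez gene 100528032) read 4.04, 4.61 and 4.52 log2 in NT_V, 7.16, 7.88 and 7.57 in NT_E, 4.70, 4.57 and 4.52 in siSRC-1_V, and 7.25, 7.74 and 7.73 in siSRC-1_E. Again no estradiol array overlapped with a vehicle array, and replicate 1 was the lowest of its group in NT_V and in both estradiol groups. The difference with SRC-1 siRNA was 2.98 ± 0.19 log2 (SE), 7.87-fold, with a limma adjusted p of 4.27e-06. With non-targeting siRNA it was 3.15 ± 0.19. Its standard error was the highest of the 5 members.

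KLRC2 (probe set 7961182, Entrez gene 3822), the gene of the activating receptor NKG2C, read 3.84, 3.80 and 3.87 log2 in NT_V and 6.37, 5.94 and 6.34 in NT_E. With SRC-1 siRNA it read 3.80, 3.97 and 3.59 under vehicle and 6.29, 6.18 and 6.24 under estradiol. The groups stood apart, with NT_E replicate 2 the lowest of the 6 estradiol arrays. The difference with SRC-1 siRNA was 2.45 ± 0.11 log2 (SE), 5.46-fold (limma adjusted p = 3.94e-07), against 2.38 ± 0.11 with non-targeting siRNA. KLRC2 lay above 6.59% to 10.5% of the tested probe sets of an array in the vehicle groups, and above 35.2% to 42.2% in the estradiol groups.

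Since the vehicle values lie below the quartile, the rise was also measured from the quartile itself, the mean of the estradiol arrays against the mean lower quartile of the matching vehicle arrays. On that scale KLRC3 stood 2.16 log2 (4.48-fold) above it with SRC-1 siRNA, KLRC4-KLRK1 2.35 (5.11-fold) and KLRC2 1.02 (2.03-fold). With non-targeting siRNA the values were 2.37, 2.33 and 1.00. The differences as deposited are larger by the distance of the vehicle arrays below the quartile.

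The 2 probe sets with several symbols moved alike. Probe set 7961151, annotated KLRC4-KLRK1 and KLRK1, read 4.66 to 4.89 log2 in NT_V, 7.84 to 8.30 in NT_E, 4.69 to 4.99 in siSRC-1_V and 7.86 to 7.91 in siSRC-1_E. Its difference with SRC-1 siRNA was 3.03 ± 0.11 log2 (SE; limma adjusted p = 8.12e-08), the largest of all 29094 probe sets. Probe set 7961166, annotated KLRC4-KLRK1 and KLRC4, went from 4.19 to 4.53 in siSRC-1_V to 6.92 to 7.16 in siSRC-1_E, a difference of 2.66 ± 0.14 (adjusted p = 7.05e-07). With non-targeting siRNA the differences were 3.34 ± 0.11 and 2.74 ± 0.14. The readthrough gene covers both KLRC4 and KLRK1, so its own signal, that of KLRC4 and that of KLRK1, the NKG2D gene, are not told apart by these probe sets.

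KLRC1 (probe set 7961187, Entrez gene 3821), the gene of the inhibitory receptor NKG2A, read 4.36, 4.38 and 4.27 log2 in NT_V and 4.61, 4.79 and 4.71 in NT_E. With SRC-1 siRNA it read 4.55, 4.43 and 4.47 under vehicle and 4.75, 4.66 and 4.73 under estradiol. The estradiol arrays were the higher ones with either siRNA, by a narrow margin. The difference with SRC-1 siRNA was 0.23 ± 0.06 log2 (SE), 1.17-fold (limma adjusted p = 0.0348), and with non-targeting siRNA 0.37 ± 0.06. The call did not hold in 13 of 23 other settings, among them each fit without siSRC-1_V replicate 2 (0.20 log2, adjusted p = 0.135) or 3 (0.23, 0.0989), without siSRC-1_E replicate 1 (0.21, 0.117) or 3 (0.22, 0.0986), or without NT_E replicate 3 (0.23, 0.0502). With the replicate number as a block the adjusted p was 0.0523, and with values set to at least the quartile the difference was -0.03.

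KLRD1 (probe set 7953949, Entrez gene 3824), the gene of the partner CD94, read 3.68, 3.74 and 3.73 log2 in NT_V, 3.61, 3.84 and 3.45 in NT_E, 3.58, 3.76 and 3.85 in siSRC-1_V, and 3.68, 3.80 and 3.65 in siSRC-1_E. The groups overlapped. The estradiol difference with SRC-1 siRNA was -0.02 log2 with a 95% interval from -0.23 to 0.18 (limma adjusted p = 0.918). The probe set lay above only 5.01% to 9.22% of the tested probe sets in any array, and without a background measurement a level this low cannot be told from none.

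Over the members, limma called 4 of 5 higher and 0 lower with estradiol and SRC-1 siRNA, and 4.49% of all 29094 probe sets were called higher there (an unadjusted p under 0.01 and an adjusted p under 0.05). The median difference was 2.45 log2 over the 5 and -0.02 over all probe sets. KLRC2, KLRC3 and KLRC4-KLRK1 were chosen by their rise with non-targeting siRNA, so this count and median are not independent of the choice. With non-targeting siRNA the same 4 were called higher, where 1.85% of all were; this comparison chose members, and nothing is read from the count. Groups that did not overlap, estradiol higher, were found for the same 4 with SRC-1 siRNA, against 12.9% of all probe sets, and for the same 4 with non-targeting siRNA, against 10.1%. Nothing is read from the latter count either, because those arrays chose members. A rise of 4-fold or more was found for 10 probe sets with SRC-1 siRNA (0.0344% of all), 5 of them from the 7 of this locus. That count starts from vehicle values below the quartile: measured from the quartile, 3 of the 5 reached 4-fold with SRC-1 siRNA, while KLRC2 stood at 2.03-fold and probe set 7961166 at 3.60-fold. Probe sets 7961173, 7961151 and 7961166 share the KLRC4-KLRK1 annotation and are not told apart, so the 5 are not 5 separate genes. A renewed quantile normalization moved the share of calls that were higher from 65.3% to 48.3% over all probe sets, while KLRC2, KLRC3 and KLRC4-KLRK1 kept their calls in all 23 other settings, with differences between 1.02 and 3.14 log2.

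The probe sets treated as controls by their numbering, which the annotation pairs with no gene, also read higher under estradiol. Their mean deviation was -0.159 to -0.0242 log2 in siSRC-1_V and 0.0941 to 0.178 in siSRC-1_E. It was -0.123 to -0.0391 in NT_V and -0.00322 to 0.0679 in NT_E. Vehicle and estradiol arrays thus did not overlap in this mean with either siRNA, so a fit with it cannot fully separate it from estradiol. With this mean as a covariate the differences with SRC-1 siRNA were 2.65 ± 0.31 log2 (SE) for KLRC3, 2.95 ± 0.46 for KLRC4-KLRK1 and 2.55 ± 0.27 for KLRC2, with limma adjusted p-values of 0.00662, 0.0285 and 0.00397. KLRC1 went to 0.08 ± 0.12 (adjusted p = 0.898).

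Whether the knockdown changes these responses was set out as the difference of the estradiol effects, SRC-1 siRNA minus non-targeting siRNA. NCOA1 itself read 8.72 to 8.83 log2 in NT_V, 5.62 to 6.18 in siSRC-1_V, 9.02 to 9.15 in NT_E and 6.79 to 6.92 in siSRC-1_E, so the targeted transcript was lower in every array that received its siRNA. With that siRNA it was 1.00 ± 0.11 log2 (SE) higher under estradiol than under vehicle (limma adjusted p = 0.00029). The difference of effects was -0.04 log2 for KLRC3, with a 95% interval from -0.47 to 0.38, and -0.18 for KLRC4-KLRK1 (-0.78 to 0.43). For KLRC2 it was 0.07 (-0.29 to 0.42), for KLRC1 -0.13 (-0.31 to 0.04) and for KLRD1 0.06 (-0.23 to 0.35). All 5 intervals include 0, and limma called 0 of all 29094 probe sets (0%) for this difference, with 2102 at an unadjusted p under 0.05. They do not show that the responses are alike: for KLRC4-KLRK1 a response smaller by 0.78 log2 lies within the interval. The effect with non-targeting siRNA, by which 3 members were chosen, is part of this difference, and the intervals are not adjusted for that.

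**Figure D2:**
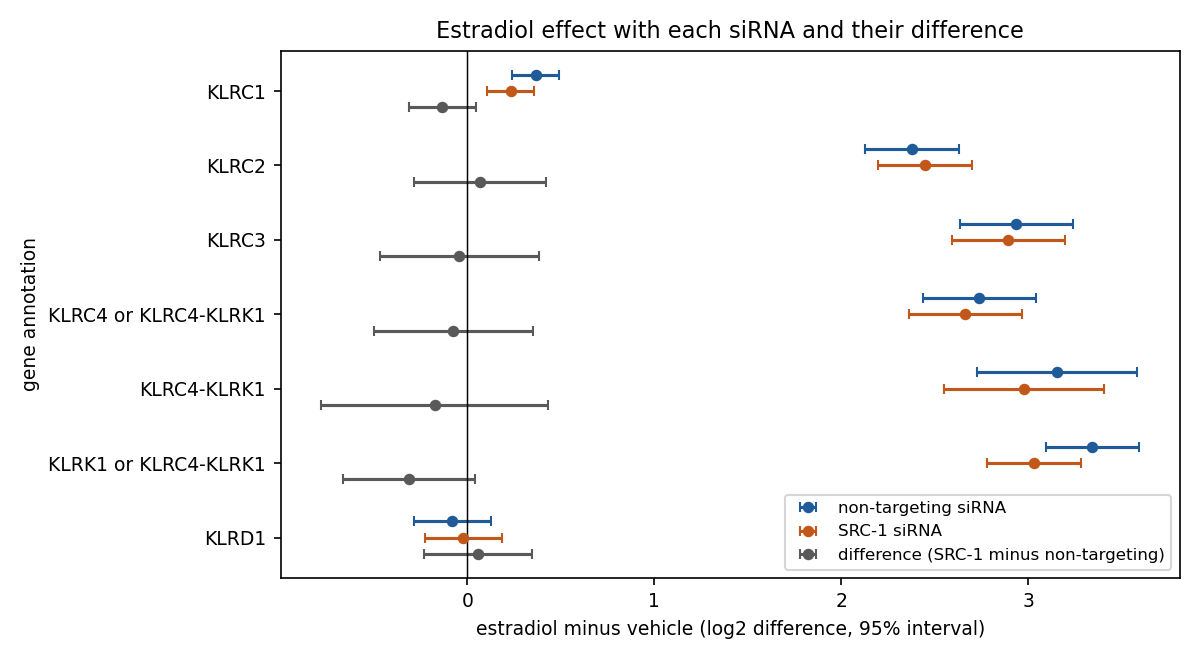
The x axis gives the estradiol effect as a log2 difference with its 95% interval from limma, and the y axis the 7 probe sets of the locus; blue is non-targeting siRNA, orange SRC-1 siRNA, grey their difference. For KLRC2, KLRC3 and KLRC4-KLRK1 the effects lie between 2.38 and 3.15, and every grey interval includes 0.

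The effect of SRC-1 siRNA averaged over both treatments does not depend on the estradiol effect that chose the genes. It was -0.18 ± 0.10 log2 (SE) for KLRC3, 0.12 ± 0.14 for KLRC4-KLRK1, -0.02 ± 0.08 for KLRC2, 0.08 ± 0.04 for KLRC1 and 0.05 ± 0.07 for KLRD1. By limma, 0 of the 5 were called, and 0 had an unadjusted p under 0.05, where 5.1% of all probe sets were called; the adjusted p-values lay between 0.351 and 0.947. Under vehicle alone the SRC-1 siRNA difference was between -0.16 log2 (KLRC3) and 0.21 (KLRC4-KLRK1), and under estradiol between -0.20 (KLRC3) and 0.07 (KLRD1). These share the non-targeting arrays with the choice of members and are given without a test. In the order of levels, the estradiol groups came first for KLRC1, KLRC2, KLRC3 and KLRC4-KLRK1. The arrays of both estradiol groups overlapped for all 4, and those of both vehicle groups for all but KLRC1, where every siSRC-1_V array (4.43 to 4.55) was above every NT_V array (4.27 to 4.38), a pattern that 8.19% of all probe sets showed. Probe set 7961166 was lower in every siSRC-1_E array (6.92 to 7.16) than in every NT_E array (7.28 to 7.40), as were 11.5% of all probe sets. For this probe set, whose averaged difference was -0.23 ± 0.10 (adjusted p = 0.24), the test was passed only without NT_V replicate 3, at -0.31 (adjusted p = 0.048).

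Along the chromosome, the measured genes of the locus and of a list of this gene complex were put in the gene order of RefSeq. Genes outside the list were not examined. In this order the probe sets with differences above 2 log2 lay next to each other, from KLRC4-KLRK1 to KLRC2, with KLRD1 on one side and KLRC1 on the other. Between KLRG1 and YBX3, 24 measured neighbours from the list had estradiol differences from -0.36 to 0.71 log2 with SRC-1 siRNA and from -0.14 to 0.44 with non-targeting siRNA. Of 32 measured genes in a list of this gene complex, 1 was called higher and 1 lower with SRC-1 siRNA, and 0 with non-targeting siRNA, by limma, with 6 and 2 at an unadjusted p under 0.05.

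The neighbour called higher was KLRA1P, a pseudogene of the Ly49 receptor family that lies next but one to KLRC1 among the listed genes. It read 5.90 to 6.42 log2 in siSRC-1_V and 6.72 to 6.94 in siSRC-1_E, a difference of 0.71 ± 0.14 (SE; limma adjusted p = 0.0119). With non-targeting siRNA it read 5.90 to 6.21 under vehicle and 6.27 to 6.71 under estradiol, a difference of 0.44 ± 0.14 that was not called (adjusted p = 0.174). The difference with SRC-1 siRNA was -0.16 ± 0.14 with the control mean as a covariate, and 0.59 (adjusted p = 0.0514) without siSRC-1_V replicate 2. The neighbour called lower was TMEM52B, at -0.36 ± 0.09 (adjusted p = 0.0321), with all 4 group means below the quartile; fits without siSRC-1_V replicate 2 (-0.33, adjusted p = 0.12) or 3 (-0.33, 0.102), or siSRC-1_E replicate 1 (-0.28, 0.116) or 3 (-0.31, 0.107), ended that call. Averaged over treatments, 2 of the 32 were called lower with SRC-1 siRNA by limma, M6PR and A2M, and 0 higher. Of all probe sets, 5.1% were called in that comparison, in either direction. The call of M6PR was lost in 8 of 23 other settings (adjusted p up to 0.0584) and that of A2M in 13 of 23 (up to 0.11), in both cases mostly fits without 1 array.

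**Figure D3:**
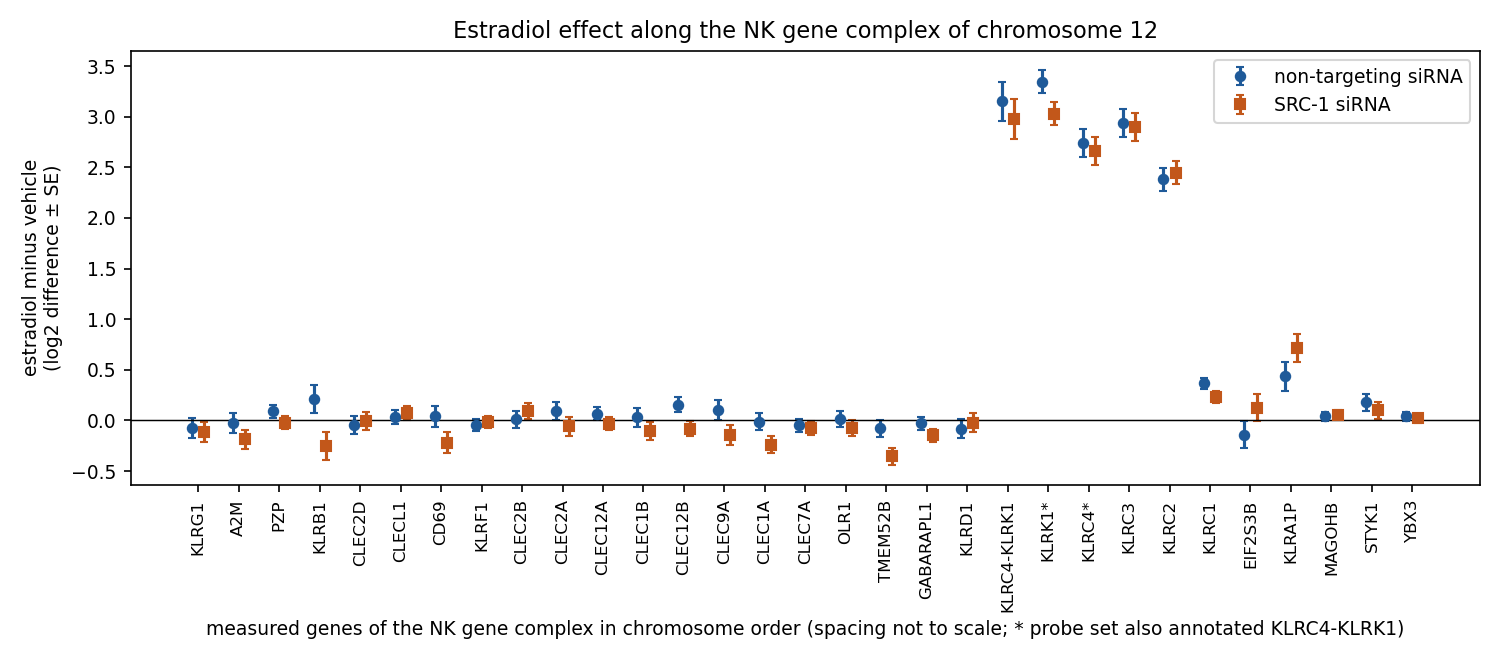
The x axis gives the 31 measured genes of the locus and of the neighbour list from KLRG1 to YBX3 in chromosome order, not to scale. The y axis gives the estradiol effect as a log2 difference with its SE, for non-targeting (circles) and SRC-1 siRNA (squares). The 5 probe sets from KLRC4-KLRK1 to KLRC2 lie between 2.38 and 3.34, KLRC1 and KLRA1P between 0.23 and 0.71, and the other neighbours between -0.36 and 0.21.

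Transcripts of the proteins that NKG2 receptors meet were measured in the same cells. B2M, the light chain of HLA class I, read 11.06 ± 0.05 log2 (SD, n = 3) in NT_V and 10.98 ± 0.02 in NT_E, and 11.02 ± 0.07 and 11.03 ± 0.01 with SRC-1 siRNA. MICA (8179238), an NKG2D ligand, read 10.47 ± 0.11 and 10.39 ± 0.03, and 10.38 ± 0.06 and 10.33 ± 0.04. Of 9 measured ligand genes, 0 were called for estradiol with either siRNA by limma, with 0 at an unadjusted p under 0.05 with non-targeting and 2 with SRC-1 siRNA; the median difference was 0.01 and 0.03 log2. All 9 had group means above the quartile in all 4 groups. RAET1E, another NKG2D ligand gene, was the only one of the 9 called for SRC-1 siRNA averaged over treatments, at -0.25 ± 0.05 (SE; limma adjusted p = 0.0162, up to 0.0503 in other settings). Of all probe sets, 5.1% were called in that comparison. No HLA class I heavy chain gene, HLA-E included, had a probe set with 1 symbol.

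For the signalling partners, 0 of 13 measured genes were called for estradiol with either siRNA by limma, with 2 and 2 at an unadjusted p under 0.05 and medians of -0.02 and -0.06 log2. PLCG2 (7997489), a phospholipase of immune receptor signalling, had the highest level, 13.44 ± 0.05 log2 (SD, n = 3) in NT_V and 13.50 ± 0.06 in siSRC-1_E, while its other probe set read 7.91 ± 0.09 in NT_V. PTPN11, the phosphatase SHP-2, read 11.08 ± 0.07 in NT_V and 11.07 ± 0.04 in siSRC-1_E. The adaptor genes, picked for their role after values were seen, were TYROBP, at 8.14 ± 0.13 in NT_V, 8.14 ± 0.04 in NT_E, 8.27 ± 0.19 in siSRC-1_V and 8.11 ± 0.06 in siSRC-1_E, and HCST, at 6.52 ± 0.06, 6.44 ± 0.09, 6.47 ± 0.07 and 6.37 ± 0.09. Their estradiol differences with SRC-1 siRNA were -0.16 ± 0.09 (SE; limma adjusted p = 0.329) and -0.11 ± 0.06 (adjusted p = 0.347).

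Markers of natural killer and T cells were read for the presence of other cells. Their mean over 30 measured genes was 5.95 to 6.04 log2 in NT_V, 5.95 to 6.01 in NT_E, 5.91 to 6.05 in siSRC-1_V and 5.85 to 5.93 in siSRC-1_E, and no estradiol group exceeded its vehicle group's highest array; the summed level was 178 to 181, 179 to 180, 177 to 182 and 176 to 178. Of the 30, 21, 22, 23 and 22 had a group mean above the quartile in these groups. By definition 25% of the probe sets of an array lie under it, so these counts are near the share of all probe sets. The list mean lay below the array medians of 6.85 to 6.92 in every array. Some markers were picked after their values were seen, to show the range within the list. Above the quartile were IL2RB at 9.54 log2, CD7 at 8.42 and NKG7 at 7.41 in NT_V. Below it in all 4 groups were PTPRC, the gene of CD45, at 4.17 in NT_V, and KLRF1 at 3.36. Whether other cells contributed to the NKG2 signal was not tested. Estradiol called 0 of 30 with non-targeting siRNA (limma; 1 at an unadjusted p under 0.05) and 1 of 30 with SRC-1 siRNA, IL2RB, an interleukin receptor chain, at 0.21 ± 0.06 log2 (SE; adjusted p = 0.0491), a call lost in 19 of 24 other settings. Of all probe sets, 1.85% and 4.49% were called higher in these 2 comparisons. Averaged over treatments, 2 of the 30 were called lower with SRC-1 siRNA, where 5.1% of all probe sets were called in either direction. They were IL2RB (-0.44 ± 0.04, limma adjusted p = 0.000119) and CD3D, a T cell receptor chain, whose call was lost in 13 of 23 other settings.

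Of the markers of osteosarcoma and mesenchymal cells, all 14 had group means above the quartile in each group, with VIM, SPARC and CD44 at 12.44, 12.58 and 12.22 log2 in NT_V. ESR1 (8122843), the receptor gene, read 12.16 ± 0.02 (SD, n = 3) in NT_V, 12.14 ± 0.04 in NT_E, 12.11 ± 0.03 in siSRC-1_V and 12.03 ± 0.02 in siSRC-1_E. Its other probe set, 8122840, had group means of only 5.44 (siSRC-1_V) to 5.54 (NT_V). With estradiol and SRC-1 siRNA, 1 of the 14 was called, COL1A2 (lower, a call lost in 15 of 24 other settings), and 0 with non-targeting siRNA by limma (1 at an unadjusted p under 0.05). Averaged over treatments, 3 of the 14 were called lower with SRC-1 siRNA by limma, ALPL, CD44 and THY1, and 1 higher, CDH2. Of all probe sets, 5.1% were called in that comparison. Over 23 other settings the differences were -0.35 to -0.30 log2 for ALPL, -0.27 to -0.24 for CD44, -0.23 to -0.18 for THY1 and 0.18 to 0.21 for CDH2. The THY1 call was lost in 2 of these settings (limma adjusted p up to 0.0531).

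**Figure D4:**
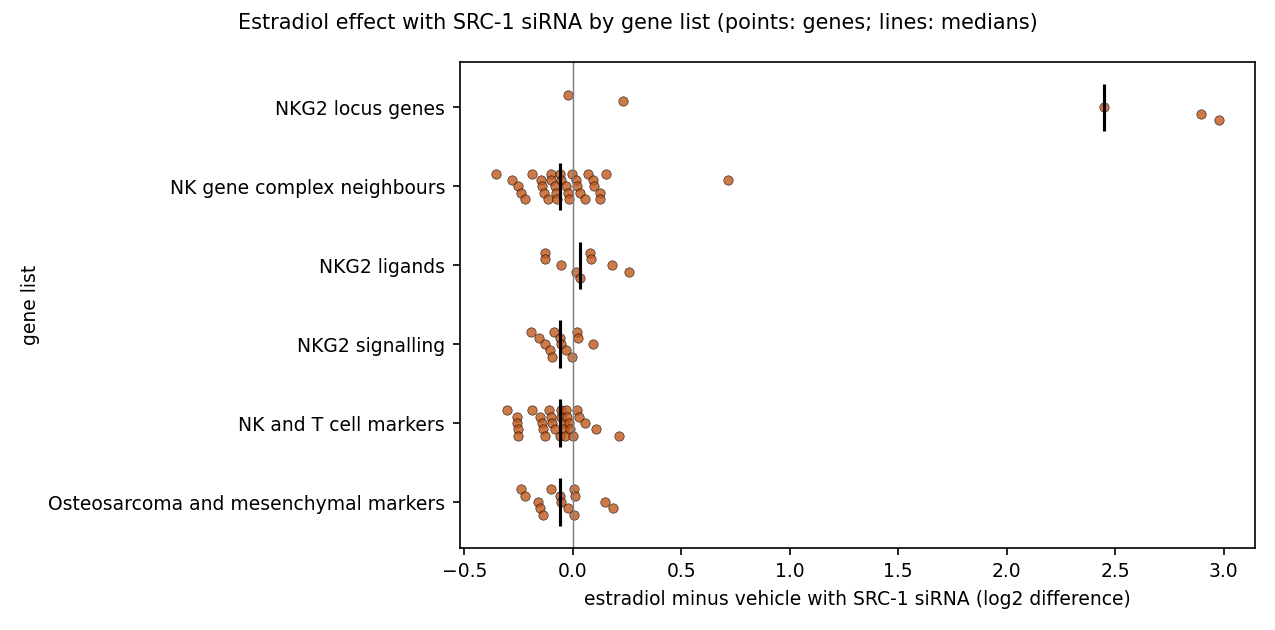
The x axis gives the estradiol effect with SRC-1 siRNA as a log2 difference and the y axis the gene lists; each point is 1 gene and each line the list's median. The locus genes have a median of 2.45, while the medians of the other 5 lists lie between -0.06 and 0.03. KLRC2, KLRC3 and KLRC4-KLRK1 were chosen by their rise with non-targeting siRNA, so the locus median is not independent of that choice. The neighbour that lies apart is KLRA1P, at 0.71.

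Likeness to the NKG2 pattern was measured as Pearson's r over the 12 arrays with the mean centred profile of KLRC1, KLRC2, KLRC3 and KLRC4-KLRK1. The 5 genes most alike were YPEL2 (r = 0.996), RUNX3 (0.994), ADAMTSL5 (0.992), IER3 (0.992) and TOB1 (0.992). Their differences with estradiol were 1.89, 1.42, 1.86, 0.99 and 1.05 log2 with non-targeting siRNA and 1.85, 1.22, 1.95, 1.06 and 1.04 with SRC-1 siRNA, from vehicle levels of 8.02 to 10.57 log2. All r values rest mostly on the contrast of vehicle with estradiol arrays that these genes share. Among KLRC1, KLRC2, KLRC3 and KLRC4-KLRK1, deviations of single arrays from their group means correlated at -0.51 (KLRC1 and KLRC2) to 0.32 (KLRC1 and KLRC4-KLRK1) over 12 arrays. Those of KLRD1 correlated with them at -0.69 (KLRC2) to 0.30 (KLRC4-KLRK1).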

How the data were processed

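The authors deposited 1 log2 value for each probe set and array, computed from the scans with affy and tested with limma per the series' design text. Their versions, normalization and genome build are not given in the sources used here. No values were changed for the main result. Of 33297 probe sets, those numbered below 7896740, where the platform annotation starts, were treated as controls (4203, an inference from the numbering) and set aside, which left 29094. Names come from the platform annotation, and gene order and promoters from RefSeq (GRCh38.p14).

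Group means were estimated jointly over the 12 arrays (limma 3.58.1, R 4.3.3; 8 residual and 3.15 prior degrees of freedom), with two-sided moderated tests and Benjamini-Hochberg adjustment across the 29094. The authors' threshold, an unadjusted p under 0.01 with an adjusted p under 0.05, defined a call. The code was tested on simulated data. Precision is limited by the number of arrays (median SE of a difference 0.0711 log2).

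Members, lists and comparisons were chosen with earlier results of these data known. A listed gene is represented by its brightest 1-symbol probe set. Named were the members, list genes called (up to 4 by p) or else the highest 2, NCOA1 and ESR1, and the 5 genes most alike. TYROBP, HCST, PTPRC, KLRF1, CD7 and NKG7 fall outside this rule and were picked after their values were seen. Alternatives covered normalization, centring, a floor or filter on low values, a replicate block, fewer arrays, the variance model, array weights, the probe sets tested, a control covariate, each array left out and a stricter threshold. Promoters were aligned locally (match 1, mismatch -1, gap opening -3, extension -1).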

Additional observations from a re-analysis of the deposited data

How the results depend on the processing

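In the settings run, the count of members called stayed within 1.5 times its main value, or their median difference within 1 SD. This held for all 6 comparisons. That margin takes 3 called members as unchanged from 4, and the call of KLRC1 for estradiol with SRC-1 siRNA was lost in most other settings. Of the 20 member and group means, 6 lay above the lower quartile. KLRC2, KLRC3 and KLRC4-KLRK1 rose with estradiol and SRC-1 siRNA in each of 23 other settings; with each array left out in turn their differences ranged from 2.35 to 2.54, 2.78 to 3.07 and 2.89 to 3.14 log2. Leaving out the lowest 40% of probe sets removed all 5 members, so that setting gave no value for them. With values set to at least the lower quartile, KLRC1 turned to -0.022 log2 with non-targeting and -0.028 with SRC-1 siRNA, which is the shift of the quartile itself, since KLRC1 lies below it in every array. KLRA1P turned to -0.16 with the control mean as a covariate. That covariate did not overlap between vehicle and estradiol arrays, so what it takes away cannot be told from an effect of estradiol. The cause of the turn was not tested. Same-numbered arrays deviated together at r over 0.1 in 6 of 18 pairs (-0.035 to 0.209), and 14 of 18 correlated best with their own number. Arrays of the same number thus appear to share some of their deviation, and its source was not tested. The main fit does not pair samples by number. With the replicate block 3 of 5 members were called for estradiol with SRC-1 siRNA instead of 4, the lost call being KLRC1. With non-targeting siRNA 4 of 5 were called in that setting. Over all probe sets, the 2001 calls for estradiol with SRC-1 siRNA became 106 with the covariate, 958 with the compared arrays only, 801 at an adjusted p under 0.01, and 1042 to 2956 with 1 array left out; the 793 with non-targeting siRNA became 366 with the covariate and 422 at an adjusted p under 0.01; and the 1483 for SRC-1 siRNA averaged over treatments became 863 with the covariate, 535 at an adjusted p under 0.01 and 897 to 1274 with 1 array left out, 2422 with a trended variance and 2344 without the lowest 40%. The 352 calls for SRC-1 siRNA under vehicle ranged from 90 with the compared arrays only to 857 with a trended variance, and the 524 under estradiol from 121 with the covariate to 1246 with a trended variance. Signal over background was not measured, which limits what can be said of KLRC1, KLRD1 and all vehicle values of the locus.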
